A study of Homo sapiens with 74 samples.

Results

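The genes described here are the amino acid transporters of the SLC1, SLC3, SLC6, SLC7, SLC36, SLC38 and SLC43 families, chosen by symbol alone, whatever their values. The count tables of K562 and HEL each listed 59 of them among 28131 genes: 7 of SLC1, 2 of SLC3, 19 of SLC6, 13 of SLC7, 4 of SLC36, 11 of SLC38 and 3 of SLC43. Polyadenylated RNA was sequenced in 2 established human cell lines with erythroid features, K562 from a chronic myeloid leukaemia in blast crisis and HEL from an erythroleukaemia, to learn how the DOT1L complex acts on transcription. K562 was sequenced as wild type control (2 distinct libraries), DOT1L-/- (DOT1L KO, 3 libraries) and ENL-/- (ENL KO, 3 libraries), and HEL as control (2 libraries) and DOT1L knockdown (DOT1L KD, 2 libraries). DOT1L is the methyltransferase of lysine 79 of histone H3, and ENL, whose gene symbol is MLLT1, is a subunit of its complex that reads acylated histones. How the knockouts and the knockdown were made, whether a knockout line was 1 clone, and whether replicates were separate cultures are not given in the sources used here, so p-values measure only the spread between these libraries. K562 was grown in DMEM and HEL in RPMI-1640, both with serum, antibiotics and added L-glutamine, and HEL with β-mercaptoethanol as well.

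Amino acids cross membranes on carriers that differ in the charge and size of their cargo and in what drives them. SLC1, SLC6 and SLC38 carriers mostly use the sodium gradient to concentrate their cargo, and SLC7 carriers mostly exchange amino acids across the membrane. Most SLC36 carriers, though not all, run with protons, and SLC43 carriers let their cargo equilibrate. Several SLC7 proteins, the light chains, reach the surface only when joined to an SLC3 heavy chain. Red cell precursors import glycine for haem synthesis, and proliferating leukaemia cells depend on imported glutamine, cystine and branched amino acids.

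K562 control columns 2 and 3 were identical in all genes and entered as 1 library, whereas the chi-square of the other K562 replicate pairs was 4.05 to 9.64 per degree of freedom. The HEL pairs were at 1.45 and 1.31, close to counting noise alone, so the HEL p-values rest on a small spread between replicates. Library totals ran from 15404944 to 29236703 counts in K562 and from 12151495 to 12811688 in HEL. DOT1L messenger RNA was at 263 ± 9.84 CPM (a gene's counts relative to its library's total, scaled by TMM factors; SD, n = 2) in the K562 control, 182 ± 5.15 (n = 3) in the DOT1L KO, 92.4 ± 7.12 (n = 2) in the HEL control and 29.6 ± 0.641 (n = 2) in the KD. MLLT1 was at 216 ± 3.56 CPM in the K562 control and 154 ± 1.92 in the ENL KO. The edited positions are not given in the sources used here, so RNA left in a knockout does not check its label. All 12 erythroid markers checked exceeded 1 CPM in every group, and their summed level was 5532 to 5962 CPM in the K562 control, 7458 to 7901 in the DOT1L KO, 6010 to 6084 in the ENL KO, 5819 to 5901 in the HEL control and 8371 to 9061 in the KD. Summed over 5 granulocytic and monocytic markers, the level was 33.7 to 36.5 CPM in the K562 control, 292 to 323 in the DOT1L KO and 19.8 to 20.7 in the ENL KO, of which LYZ gave most (310 ± 17.1 CPM in the DOT1L KO), and ELANE was at 0 in both knockouts. Summed megakaryocytic markers were at 7.30 to 9.93 CPM in the K562 control, 33.3 to 35.0 in the DOT1L KO and 29.4 to 36.9 in the ENL KO, with GP1BA at 0 in all K562 groups. In HEL all 6 megakaryocytic markers were expressed, with sums of 2607 to 2660 CPM in the control and 2075 to 2079 in the KD, where 2 rose and 4 fell. Summed over 4 T cell markers, the level was 51.5 to 53.1 CPM in the K562 control, 15.9 to 20.3 in the DOT1L KO and 61.5 to 72.3 in the ENL KO. Only 1 of the 4 reached a mean of 1 CPM in each of these groups, so 1 gene gave most of each sum. CD8A was at 0 in all 3 groups, and CD2 was at 0 in the ENL KO. The part of these shifts in the transporter results was not tested, and in bulk RNA fewer cells of a type and less RNA per cell cannot be told apart. The ENL KO labels name no sequencing lane while those of the other K562 groups do, so a batch and the ENL knockout cannot be told apart.

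Most of the transporters expressed in these cells differed between depleted and control libraries, and the changes went in both directions. Of the 34 members with enough counts to be tested in K562, 23 passed an adjusted p of 0.05 in the DOT1L KO against control, 16 higher and 7 lower (67.6%; edgeR, quasi-likelihood test, Benjamini-Hochberg over all genes). Over all 14301 genes tested the same share was 51.1%, with 26.9% higher and 24.2% lower. In the ENL KO against control 20 of the 34 members passed, 9 higher and 11 lower, beside 41.0% of all genes (18.8% higher and 22.2% lower). SLC7A3, SLC1A2, SLC6A13 and SLC6A15, among the 34, had 3 counts or fewer in all in each of these 2 groups. No change could be measured in them, which leaves 30 members with a value. Between the knockouts, 28 members differed, 19 higher and 9 lower in the DOT1L KO, beside 60.2% of all genes (31.8% and 28.3%). In HEL 18 of 25 tested members passed in the KD against control, 12 higher and 6 lower, beside 55.0% of 12635 genes (27.0% and 28.0%). With upper-quartile scaling 61.4% of the HEL genes called were higher, in place of 49.1%, and 12 members were higher and 5 lower. The comparisons within K562 share libraries, so their counts are not independent of each other. Groups did not overlap for 31, 24 and 31 of the 34 members in these 3 K562 comparisons, in the order given. Over all genes tested the shares were 68.1%, 59.6% and 63.3%. In HEL 20 of 25 members did not overlap, beside 75.9% of all genes. A lack of overlap, where named below, is thus the usual state of a gene with so few libraries.

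With a log2 fold change of at least 1 as a further condition, 10 members rose and 1 fell in the DOT1L KO, whereas 1 was higher and 7 lower in the ENL KO. Genes as a whole leaned the same way: 11.7% were higher and 4.09% lower in the DOT1L KO (15.8% in either direction), and 2.89% and 8.11% in the ENL KO (11.0%). By the same rule 12 members were higher and 1 lower in the DOT1L KO against the ENL KO, beside 15.4% and 3.82% of all genes (19.2% in all). In the HEL KD 2 were higher and none lower, beside 3.37% and 2.47% of all genes (5.84% in all). Members that are almost absent in one group pass the count filter only through another group of the same fit. SLC7A3, SLC1A2, SLC6A13, SLC6A15 and SLC6A4 had under 10 counts in every K562 control library. These 5 are among the 10 that rose in the DOT1L KO. Of the 12 higher in the DOT1L KO than in the ENL KO, 8 had under 10 counts in every ENL KO library. These were the same 5 and SLC1A3, SLC6A12 and SLC7A7. SLC38A3, the member lower in both, had under 10 counts in every DOT1L KO library. SLC7A8, among the 2 higher in HEL, had under 10 counts in every HEL control library. Of the falls in the ENL KO, those of SLC1A3, SLC6A12, SLC7A7 and SLC6A4 ended under 10 counts in every library. SLC6A4, low in both the control and the ENL KO, passed the filter only through the DOT1L KO, and its fall is among those counted in the ENL KO. The median log2 fold change of the tested members was 0.24 in the DOT1L KO, -0.12 in the ENL KO and 0.21 in the HEL KD, beside 0.01, 0.00 and 0.01 over all genes.

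**Figure D1:**
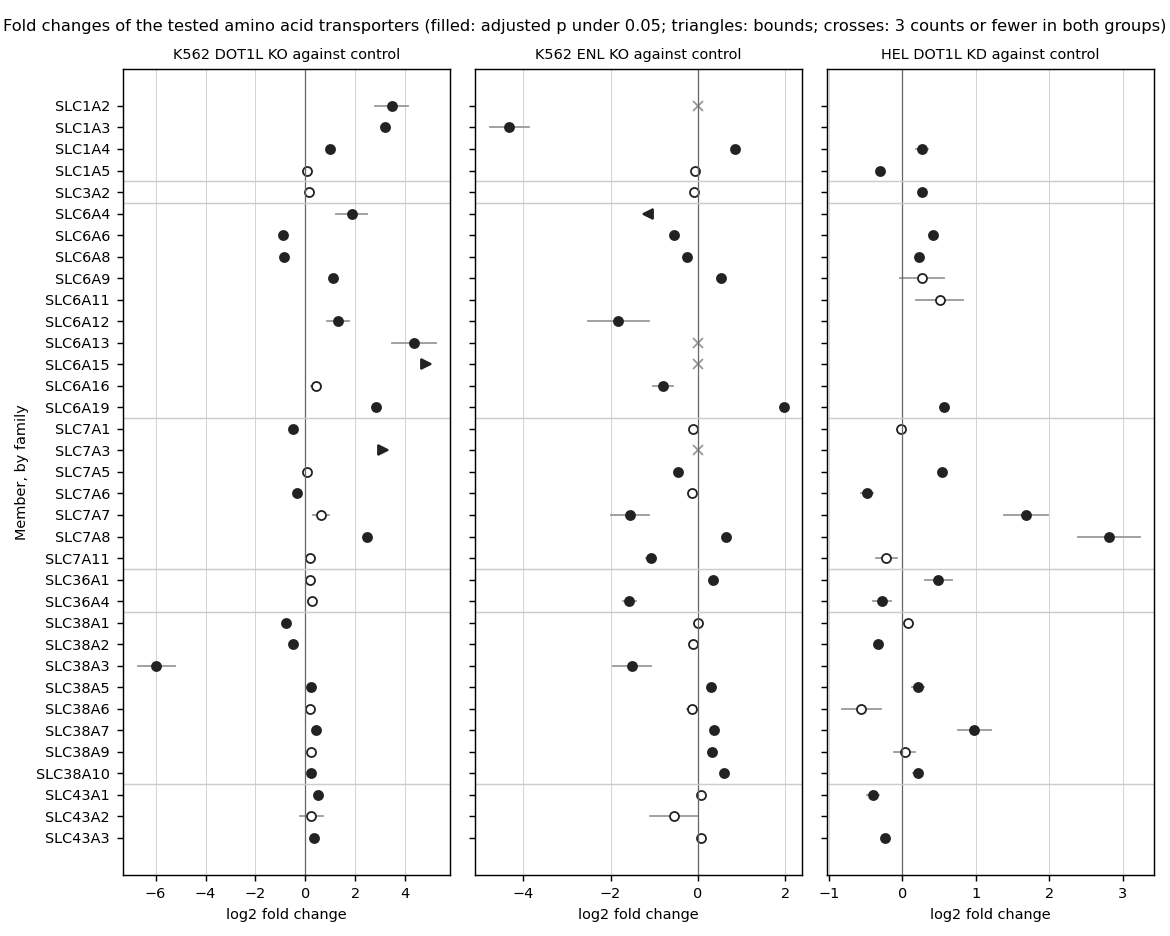
Log2 fold change of the 35 members tested in K562 or HEL, grouped by family, for each comparison with a control. Bars are 1 standard error, filled circles passed an adjusted p of 0.05 in edgeR, triangles are lower bounds for members at 0 in one group, crosses mark members with 3 counts or fewer in both groups, and each panel has its own scale. SLC6A19 reaches 2.81 in DOT1L KO libraries and 1.98 in those of the ENL KO, while SLC1A3 lies at 3.19 and -4.32.

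More members had at least 1 count in the DOT1L KO, the group with the most counts in all, than in the other groups. In the K562 control 24 of the 59 members had no count in any library (40.7%), and in the ENL KO again 24, but in the DOT1L KO 13 (22.0%). SLC6A17, SLC3A1, SLC7A14, SLC6A20, SLC1A1 and SLC7A9 had 0 counts in the control and only 1 in all in the DOT1L KO. Over all genes, 36% had no count in the control, 36.5% in the ENL KO and 30.2% in the DOT1L KO. The DOT1L KO group held 71303502 counts in all, the ENL KO 57547143 and the 2 control libraries 43089248, and the part of this difference in depth was not tested. In HEL 29 members had no count in the control and 29 in the KD. The 9 members without a count in any of the 12 libraries were SLC6A3, SLC6A7, SLC36A3, SLC36A2, SLC7A13, SLC6A14, SLC38A4, SLC1A6 and SLC7A10, carriers known mostly from brain, kidney, gut or liver.

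Levels are compared between genes as CPM per kilobase of exonic length. SLC1A5 was the most abundant member in K562, at 233 ± 10.4 CPM per kb in the control (SD, n = 2), 246 ± 11.0 with DOT1L KO, and 222 ± 18.0 with ENL KO (n = 3 each). In the K562 control it was followed by SLC7A5 (113 ± 0.459), SLC43A3 (109 ± 4.41), SLC38A5 (100 ± 1.39), SLC38A2 (78.7 ± 4.64) and SLC3A2 (74.4 ± 0.510). SLC7A5 and SLC43A3 do not differ beyond their spread in that order, nor do SLC38A2 and SLC3A2. The order was different in HEL, where SLC43A3 led with 99.1 ± 1.27 CPM per kb in the control (n = 2), before SLC1A5 (80.9 ± 3.36) and SLC38A2 (47.5 ± 1.46). In the KD SLC7A5, at 37.0 ± 1.16 CPM per kb, did not differ beyond the spread from SLC38A2 (37.8 ± 1.14) or SLC3A2 (36.1 ± 0.124), having been below SLC3A2 in the HEL control (25.5 ± 0.416 against 29.9 ± 0.271).

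**Figure D2:**
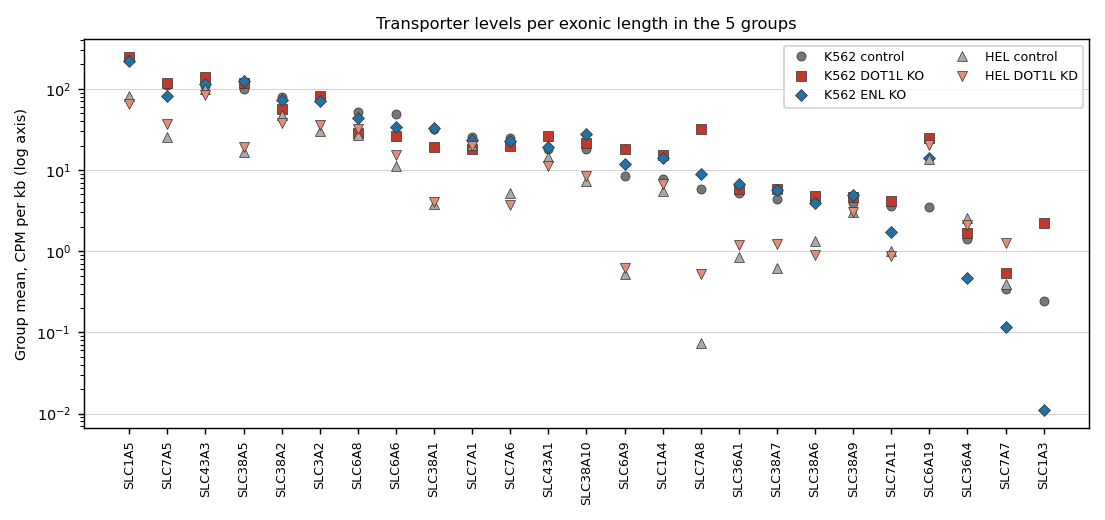
Mean level in CPM per kb (log axis) of the 25 members that reached 1 CPM per kb in at least 1 of the 5 groups, ordered by the K562 control. SLC1A5 leads in all K562 groups at 222 to 246, and SLC7A8 and SLC1A3 show the widest gaps between groups. Groups in which a member had no count have no point.

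Promoter sequences from RefSeq (GRCh38.p14) are shown for members whose levels changed, as the 250 bases before the RefSeq start of the gene, read 5′ to 3′ on its own strand. A window was given for 44 of the 59 members, and for 32 of these the RefSeq start lay within 50 bases of the 5′ end of the gene as counted. SLC1A3 and SLC7A8 are not shown because their windows lay 9767 bases before and 28340 bases inside the counted gene. Each window was searched on both strands for 3 motifs, of which no matches shown overlap, and matches are in capitals. The first motif was AGATAA, recognised by the erythroid zinc finger factors. The others were CACGTG, the E-box of the MYC family, and TGATGNAA, the core of the element bound by ATF4. SLC6A19, at chr5:1201345-1201594 on the plus strand, was higher in all 3 depleted groups. SLC7A5, at chr16:87869508-87869757 on the minus strand, is the main light chain. SLC38A5, at chrX:48470261-48470510 on the minus strand, was higher in these groups as well, and SLC36A4, at chr11:93197992-93198241 on the minus strand, was lower in the ENL KO.
SLC6A19: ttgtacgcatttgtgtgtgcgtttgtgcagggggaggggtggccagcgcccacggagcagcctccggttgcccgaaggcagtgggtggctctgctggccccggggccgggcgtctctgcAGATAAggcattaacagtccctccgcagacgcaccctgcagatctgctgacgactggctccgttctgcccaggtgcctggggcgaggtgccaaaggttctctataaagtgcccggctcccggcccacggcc
SLC7A5: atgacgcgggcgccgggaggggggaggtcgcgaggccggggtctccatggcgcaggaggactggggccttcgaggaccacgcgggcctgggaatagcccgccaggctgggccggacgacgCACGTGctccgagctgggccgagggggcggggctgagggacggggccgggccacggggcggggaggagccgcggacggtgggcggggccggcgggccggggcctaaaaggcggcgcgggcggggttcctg
SLC38A5: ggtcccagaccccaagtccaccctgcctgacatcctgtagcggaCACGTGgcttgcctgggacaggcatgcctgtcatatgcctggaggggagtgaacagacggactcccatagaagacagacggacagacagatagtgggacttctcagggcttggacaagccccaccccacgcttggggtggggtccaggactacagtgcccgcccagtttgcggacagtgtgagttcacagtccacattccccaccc
SLC36A4: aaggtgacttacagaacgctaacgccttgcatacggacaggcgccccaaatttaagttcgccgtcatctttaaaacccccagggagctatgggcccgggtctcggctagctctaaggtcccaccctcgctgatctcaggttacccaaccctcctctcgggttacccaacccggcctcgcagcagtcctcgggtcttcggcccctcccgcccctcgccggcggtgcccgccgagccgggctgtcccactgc
AGATAA stood in 3 of the 44 member windows, among them SLC6A19 at 131 bases before the start, and in 9.37% of all 27305 windows of that length. CACGTG stood in 5, among them SLC7A5 (130 bases before the start) and SLC38A5 (206 bases before), and in 6.49% of all windows. TGATGNAA stood in 1 of the 44 and in 3.19% of all windows. The SLC36A4 window held none of the 3 motifs. GC content was 79.6% in the SLC7A5 window, 66.0% in that of SLC6A19, 64.0% in that of SLC36A4 and 60.8% in that of SLC38A5.

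The SLC1 family holds glutamate carriers, of which SLC1A3 and SLC1A2 were scarce in control cells and rose in the DOT1L KO, and neutral amino acid exchangers, which were more abundant. The other glutamate carriers, SLC1A1, SLC1A6 and SLC1A7, had 2 counts or fewer in every library and were not tested. SLC1A3 (chromosome 5, 36606355 to 36688334, GRCh38, plus strand) imports glutamate together with sodium. It was at 1.35 and 0.993 CPM in the K562 control libraries, at 11.2, 10.8 and 10.2 in the DOT1L KO and at 0.0483, 0.0487 and 0.0651 in the ENL KO, where each library held 1 count. The 3 K562 groups did not overlap, and all 4 HEL libraries were at 0. SLC1A3 rose by a log2 fold change of 3.19 ± 0.17 (SE) in the DOT1L KO (edgeR adjusted p = 3.95e-09). With 3 counts in all in the ENL KO, its level was lower than the control by a ratio of 22.1 (exact 95% counting interval 7.15 to 111), and lower than in the DOT1L KO by a ratio of 203 (69.1 to 984). SLC1A2, another glutamate carrier, was at 0 and 0.142 CPM in the control and 0.743 to 0.909 in the DOT1L KO, higher by a ratio of 11.7 (3.82 to 58.5). It and the other members under 1 CPM that are named below were chosen after their values were seen.

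SLC1A4, which exchanges alanine, serine and cysteine, rose in every depleted group. It was at 36 and 38.4 CPM in the K562 control, 71.8 to 74.1 in the DOT1L KO and 64.4 to 69.6 in the ENL KO, so both knockouts lay above the control. The log2 fold changes were 0.98 ± 0.07 and 0.85 ± 0.07 in K562 (edgeR adjusted p = 4.00e-08 and 2.84e-07) and 0.27 ± 0.08 in HEL (0.00392). The HEL call was lost without KD replicate 1, at 0.23. SLC1A5, the main glutamine importer of proliferating cells, was at 772 and 724 CPM in the K562 control, 827, 786 and 757 in DOT1L KO libraries and 776, 706 and 662 in those of the ENL KO. The 3 groups overlapped, and neither knockout passed the test against the control (0.08 ± 0.07, edgeR adjusted p = 0.353, and -0.07 ± 0.07, 0.471). Between the knockouts SLC1A5 was at 0.14 ± 0.06, higher in the DOT1L KO (edgeR adjusted p = 0.0528). That difference passed the threshold under 6 of 11 alternatives, among them DESeq2 (adjusted p = 0.0435). In HEL it fell from 268 and 253 CPM to 211 and 213, by 0.30 ± 0.04 on the log2 scale (edgeR adjusted p = 5.66e-10). The difference between the lines was itself past the threshold (-0.36 ± 0.08, HEL minus K562, edgeR adjusted p = 7.49e-04).

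The SLC6 family held large rises alongside falls of the taurine and creatine carriers. SLC6A19 (chromosome 5, 1201595 to 1225111, plus strand), the sodium-driven importer of neutral amino acids known from gut and kidney, was at 17.2 and 19.2 CPM in the K562 control. It was at 129, 127 and 126 CPM in the DOT1L KO and at 74.5, 70.0 and 70.5 in the ENL KO. The groups lay far apart, with the DOT1L KO highest and the ENL KO between it and the control. The rises were 2.81 ± 0.07 and 1.98 ± 0.07 on the log2 scale (edgeR adjusted p = 9.93e-12 and 1.92e-10), and the DOT1L KO exceeded the ENL KO by 0.83 ± 0.05 (1.81e-08). HEL control cells already held SLC6A19 at 74.5 and 67.4 CPM, and the KD raised it to 104 and 106, by 0.57 ± 0.05 (3.61e-14). SLC6A18, whose gene begins 244 bases after SLC6A19 ends, had 3, 10 and 1 counts in the DOT1L KO libraries, 0, 0 and 1 in the ENL KO and 0 in the control, too few to be tested.

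SLC6A9 (chromosome 1, 43996483 to 44031492, minus strand), the glycine importer that supplies haem synthesis in red cell precursors, was at 31.5 and 30.6 CPM in the K562 control, 70.2, 69.5 and 63.2 with DOT1L KO, and 46.7, 43.4 and 43.1 with ENL KO. No groups overlapped, and the rises were 1.12 ± 0.07 and 0.52 ± 0.08 on the log2 scale (edgeR adjusted p = 3.55e-08 and 1.04e-04). In HEL it was much scarcer, at 1.44 and 2.46 CPM in the control and 1.91 and 2.77 in the KD, which overlapped (0.26 ± 0.30, edgeR adjusted p = 0.488). ALAS2, the first enzyme of haem synthesis and one of the erythroid markers, was at 55.6 ± 4.45 CPM in the K562 control, 355 ± 7.36 in DOT1L KO libraries and 158 ± 2.09 in those of the ENL KO. In HEL it was at 307 ± 1.56 CPM in the control and 337 ± 1.43 in the KD.

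SLC6A15 (chromosome 12, 84859488 to 84912829, minus strand), an importer of branched amino acids and proline known from brain, had no count in the K562 control, the ENL KO or HEL, and 2.04, 2.20 and 1.70 CPM in the DOT1L KO. Against a floor of 3 counts over the control group its level was at least 28.5-fold higher, and against the same floor in the ENL KO at least 37.9-fold higher (edgeR adjusted p = 7.71e-06 and 1.86e-06). SLC6A15 passed the count filter only through the DOT1L KO, so these p-values add no support beyond the counts. SLC6A12, a carrier of betaine and GABA, was at 0.372 and 0.662 CPM in the control, 0.954, 1.76 and 1.04 with DOT1L KO, and 0.0966, 0.0487 and 0.326 with ENL KO. The groups did not overlap, and it rose by 1.31 ± 0.44 in the DOT1L KO and fell by 1.82 ± 0.69 in the ENL KO (edgeR adjusted p = 0.0238 and 0.0495). These calls rest on few counts: the rise was 0.95 without control replicate 1 (edgeR adjusted p = 0.197) and 0.95 without DOT1L KO replicate 2 (0.110), and the change in the ENL KO was -2.17 without control replicate 1 (0.0577), -1.35 without control replicate 2 (0.295), -1.58 without ENL KO replicate 1 (0.112) and -1.38 without ENL KO replicate 2 (0.162). The DOT1L KO exceeded the ENL KO by 3.13 ± 0.52 (1.60e-04). SLC6A13, the next gene 6416 bases away and a GABA carrier, had 1 count in the control and 1 in the ENL KO and was at 0.818, 0.439 and 0.521 CPM in the DOT1L KO, higher than the control by a ratio of 24.6 (exact 95% counting interval 4.18 to 996). SLC6A4, the serotonin importer, was at 0.139 and 0.0946 CPM in the control and at 0.50, 0.507 and 0.284 in the DOT1L KO, a rise of 1.85 ± 0.62 (edgeR adjusted p = 0.0262) that was lost without control replicate 1 (2.14, 0.0944) or 2 (1.61, 0.157). No SLC6A4 count was found in the ENL KO, where the fall against 5 control counts was at least 2.21-fold. SLC6A4 passed the count filter only through the DOT1L KO, and the call in the ENL KO was lost without any one of the K562 control or ENL KO libraries.

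SLC6A6 imports taurine and SLC6A8 imports creatine, and on DOT1L depletion both fell in K562 and rose in HEL. SLC6A6 was at 343 and 341 CPM in the K562 control, 186, 182 and 182 in DOT1L KO libraries and 237, 239 and 219 in those of the ENL KO. It fell by 0.90 ± 0.05 in the DOT1L KO and by 0.56 ± 0.05 in the ENL KO (edgeR adjusted p = 1.15e-08 and 1.93e-06), and no groups overlapped. In HEL it rose from 81.2 and 75.2 CPM to 106 and 102 (0.41 ± 0.05, 3.98e-10). SLC6A8 was at 202 and 176 CPM in the K562 control, 113, 98.5 and 99.5 with DOT1L KO, and 171, 162 and 145 with ENL KO, a fall of 0.87 ± 0.08 in the DOT1L KO (edgeR adjusted p = 1.47e-06). Its change in the ENL KO was smaller (-0.25 ± 0.08, 0.0306) and lost its call without control replicate 1 (-0.14) or without ENL KO replicate 2 (-0.26) or 3 (-0.18). In HEL SLC6A8 rose by 0.23 ± 0.05 (2.79e-05). A listed near copy, SLC6A10P, had 4 counts or fewer in every library, and how reads shared with it were counted is not given. SLC6A16, a member with no known cargo, fell in the ENL KO (-0.81 ± 0.23, edgeR adjusted p = 0.0122), a call lost without either control library (-0.83 and -0.80). SLC6A11, a GABA carrier, was tested in HEL only, at 1.20 and 1.91 CPM in the control and 2.70 and 1.71 in the KD (0.51 ± 0.32, edgeR adjusted p = 0.178). The remaining 9 SLC6 members were not tested in either line.

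**Figure D3:**
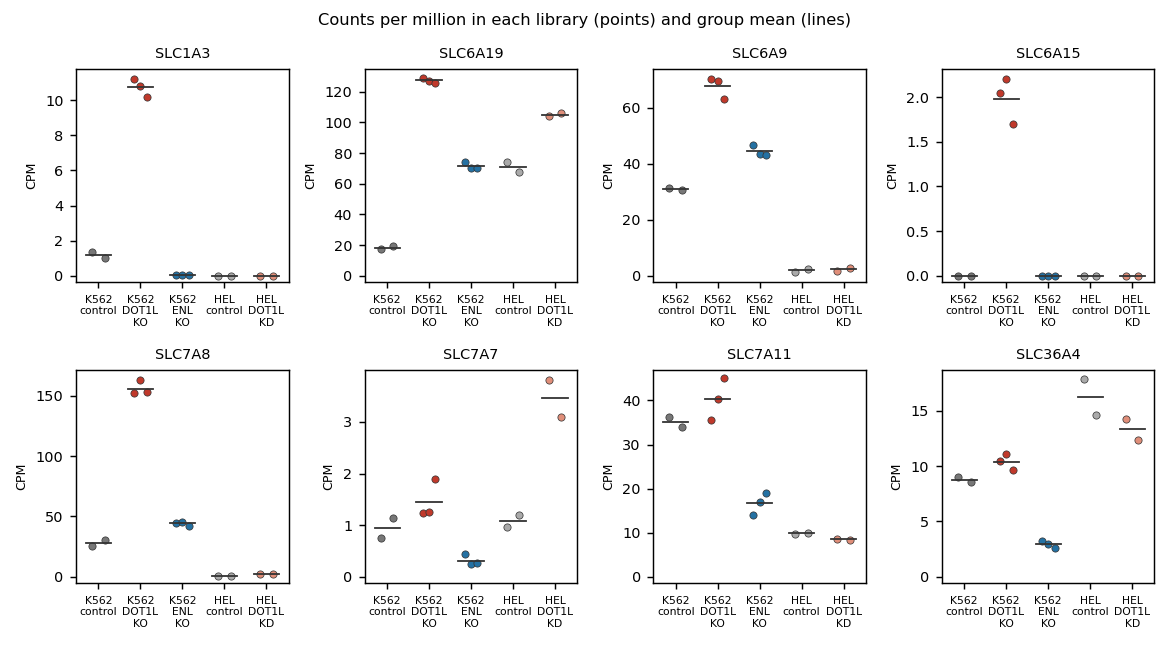
CPM in each library (points) with the group mean (line) for 8 members, each panel on its own linear axis. SLC1A3, SLC6A15 and SLC7A8 are highest in the K562 DOT1L KO, SLC7A11 and SLC36A4 are lowest among the K562 groups in the ENL KO, and SLC7A7 is highest in the HEL KD at 3.82 and 3.09.

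SLC3A2, the heavy chain that carries SLC7A5, SLC7A6, SLC7A7, SLC7A8 and SLC7A11 to the surface, passed the test against control in HEL alone. It was at 217 and 215 CPM in the K562 control, 243, 239 and 232 in DOT1L KO libraries and 219, 203 and 193 in those of the ENL KO. Neither knockout passed the test against the control (0.14 ± 0.06, edgeR adjusted p = 0.0667, and -0.08 ± 0.06, 0.329), although the knockouts differed from each other by 0.22 ± 0.05 (0.00317). With scaling by library size alone the DOT1L KO difference was 0.18 with an adjusted p of 0.0129. In HEL SLC3A2 rose from 87.4 and 86.3 CPM to 105 and 105 (0.27 ± 0.05, 2.27e-06). The other heavy chain, SLC3A1, had 2 counts or fewer in every library.

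Of the light chains, SLC7A5 was by far the most abundant in both lines, but SLC7A8 changed most on DOT1L depletion. SLC7A8 (chromosome 14, 23125295 to 23183660, minus strand), an exchanger of large and small neutral amino acids, was at 25.9 and 30.6 CPM in the K562 control. It was at 152, 163 and 153 CPM in the DOT1L KO and at 44.5, 45.8 and 42.3 in the ENL KO, and no groups overlapped. The rises were 2.47 ± 0.08 and 0.65 ± 0.08 on the log2 scale (edgeR adjusted p = 5.53e-11 and 2.15e-05). HEL cells held little of it, 0.320 and 0.397 CPM in the control from 4 and 5 counts, and 2.47 and 2.68 in the KD, a rise of 2.81 ± 0.42 (8.96e-08). In HEL SLC7A8 passed the count filter only through the KD, so that p-value adds no support beyond the counts. The responses of the lines to DOT1L depletion differed by 0.37 ± 0.43 (HEL minus K562, edgeR adjusted p = 0.589), an error wide enough to leave a sizeable difference undetected.

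SLC7A5 (chromosome 16, 87830016 to 87869499, minus strand), which imports leucine and other large neutral amino acids, was at 517 and 514 CPM in the K562 control, 524, 533 and 543 with DOT1L KO, and 387, 383 and 358 with ENL KO. Only the ENL KO passed the test against the control, lower by a log2 fold change of -0.45 ± 0.05 (edgeR adjusted p = 1.02e-05), while the DOT1L KO was at 0.05 ± 0.05 (0.437). In HEL SLC7A5 rose from 115 and 118 CPM to 165 and 172, by 0.54 ± 0.04 (4.32e-16). A listed copy of the gene, SLC7A5P2, had 74 to 152 counts in K562 libraries and 1 to 3 in HEL, and how reads shared with it were counted is not given. SLC7A6, an exchanger of cationic for neutral amino acids, fell in the DOT1L KO (-0.33 ± 0.05, edgeR adjusted p = 1.98e-04) and in the HEL KD (-0.48 ± 0.08, 2.73e-06). 12.4% of its exonic length lies under a gene on the opposite strand. SLC7A7, with a similar cargo, was at 0.744 and 1.14 CPM in the K562 control, 1.23, 1.25 and 1.89 in DOT1L KO libraries and 0.435, 0.243 and 0.261 in those of the ENL KO. It fell in the ENL KO (-1.55 ± 0.43, edgeR adjusted p = 0.0111), a call lost without control replicate 2 (-1.21, 0.121), and was at 0.61 ± 0.32 (0.126) in the DOT1L KO. In HEL it rose from 0.959 and 1.19 CPM to 3.82 and 3.09 (1.68 ± 0.30, edgeR adjusted p = 5.49e-06).

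SLC7A11 (chromosome 4, 138164094 to 138242349, minus strand) imports cystine in exchange for glutamate and thereby feeds glutathione synthesis. It was at 36.3 and 33.9 CPM in the K562 control, 35.5, 40.4 and 45.0 with DOT1L KO, and 14.0, 16.9 and 19.0 with ENL KO. The ENL KO lay below both other groups, which overlapped each other. SLC7A11 fell by 1.08 ± 0.12 in the ENL KO (edgeR adjusted p = 9.68e-06), whereas the DOT1L KO was at 0.20 ± 0.12 (0.166; 0.28 with 0.0458 without DOT1L KO replicate 1). The knockouts differed by 1.28 ± 0.11 (2.77e-07). In HEL it was at 9.75 and 10.0 CPM in the control and 8.67 and 8.30 in the KD (-0.22 ± 0.14, 0.194).

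As a share of the summed light chain RNA per exonic length, SLC7A5 made up 76.5% ± 0.678 (SD, n = 2) in the K562 control, 67.5% ± 0.693 in DOT1L KO libraries and 71.0% ± 0.553 in those of the ENL KO (n = 3 each). The share of SLC7A8 went from 3.91% ± 0.446 in the control to 18.4% ± 0.561 with DOT1L KO, and 7.78% ± 0.129 with ENL KO. SLC7A6 held 16.9% ± 0.295, 11.4% ± 0.259 and 19.6% ± 0.336, and SLC7A11 held 2.46% ± 0.131, 2.40% ± 0.241 and 1.49% ± 0.267. In HEL the KD moved SLC7A5 from 79.3% ± 0.442 to 85.3% ± 0.958 and SLC7A6 from 16.1% ± 0.263 to 8.57% ± 0.408 (n = 2 each). The SLC7A8 share in HEL was 0.227% ± 0.0298 in the control and 1.21% ± 0.0484 in the KD. Light chain RNA per unit of SLC3A2 RNA was 1.98 ± 0.0231 in the K562 control, 2.12 ± 0.0931 in DOT1L KO libraries and 1.65 ± 0.0662 in those of the ENL KO, and 1.08 ± 0.0333 and 1.20 ± 0.0201 in the HEL control and KD. These shares and ratios were described and not tested, and RNA shares say nothing of the proteins at the membrane.

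**Figure D4:**
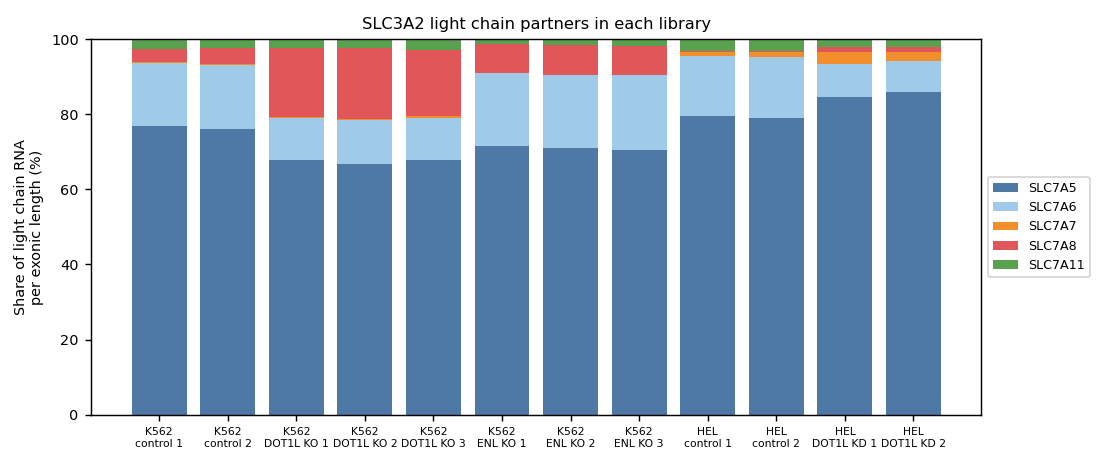
Share of each SLC3A2 light chain in their summed RNA per exonic length (%), 1 bar per library. SLC7A8 takes 17.8% to 19.0% in the DOT1L KO libraries of K562 and 3.6% to 4.23% in the controls, and the bars of 1 group differ little.

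The SLC7 members that need no heavy chain carry cationic amino acids. SLC7A1, the general arginine and lysine importer, was at 187 CPM in both K562 control libraries, 134, 134 and 132 with DOT1L KO, and 170, 175 and 171 with ENL KO. It fell by 0.49 ± 0.05 in the DOT1L KO (edgeR adjusted p = 2.57e-06) and was at -0.12 ± 0.05 (0.0673) in the ENL KO. In HEL the groups overlapped, at 148 and 150 CPM in the control and 144 and 149 in the KD (-0.02 ± 0.04, 0.672). SLC7A3, a relative of SLC7A1 known from brain, had no count in the control or the ENL KO and 0.545, 0.709 and 0.521 CPM in the DOT1L KO, at least 8.60-fold higher than the control (edgeR adjusted p = 4.85e-04). SLC7A3 too passed the count filter only through the DOT1L KO, so its p-value adds no support beyond the counts.

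In the SLC36 family, most of which moves small amino acids with protons and in part out of lysosomes, the members tested were SLC36A1 and SLC36A4. SLC36A4 (chromosome 11, 93144171 to 93197975, minus strand) was at 9.02 and 8.56 CPM in the K562 control, 10.5, 11.1 and 9.66 in DOT1L KO libraries and 3.24, 2.97 and 2.61 in those of the ENL KO. It fell by 1.57 ± 0.14 in the ENL KO (edgeR adjusted p = 9.15e-07), while the DOT1L KO was at 0.25 ± 0.12 (0.0893), and the knockouts differed by 1.82 ± 0.12 (2.34e-08). In HEL it was at 17.9 and 14.6 CPM in the control and 14.3 and 12.4 in the KD. That HEL difference (-0.28 ± 0.12, 0.0425) lost its call without control replicate 1 (-0.13), without KD replicate 2 (-0.18), with upper-quartile scaling (-0.21) and in DESeq2 (adjusted p = 0.248). SLC36A1, a lysosomal exporter, rose in the ENL KO (0.35 ± 0.07, edgeR adjusted p = 0.00184). It rose in the HEL KD too (0.49 ± 0.18, 0.0156), but not without HEL control replicate 1 (0.30) or KD replicate 1 (0.38).

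SLC38A1 and SLC38A2, which import glutamine, alanine and other small amino acids at the cell surface, are neighbours on chromosome 12, 88763 bases apart on the minus strand. SLC38A1 was at 320 and 326 CPM in the K562 control, 181, 196 and 191 with DOT1L KO, and 302, 332 and 343 with ENL KO, a fall of 0.77 ± 0.06 in the DOT1L KO (edgeR adjusted p = 2.05e-07) beside 0.01 ± 0.06 (0.917) in the ENL KO. SLC38A2 (46358188 to 46372862) was at 368 and 400 CPM in the control, 251, 295 and 277 in DOT1L KO libraries and 330, 362 and 366 in those of the ENL KO. It fell by 0.48 ± 0.07 in the DOT1L KO (7.38e-05), and the ENL KO was at -0.12 ± 0.07 (0.190). In HEL SLC38A2 fell from 237 and 227 CPM to 181 and 189 (-0.33 ± 0.04, edgeR adjusted p = 8.25e-11), whereas SLC38A1 was at 37.6 and 38.2 CPM in the control and 38 and 42.2 in the KD (0.08 ± 0.07, 0.349).

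SLC38A3 and SLC38A5 carry glutamine with sodium and in exchange for protons and went opposite ways. SLC38A3 (chromosome 3, 50205246 to 50220979, plus strand) was at 1.12 and 1.32 CPM in the K562 control from 24 and 28 counts. It had 1, 0 and 0 counts in the DOT1L KO libraries and 14, 4 and 6 in the ENL KO (0.676, 0.195 and 0.391 CPM). The DOT1L KO lay below the control by a ratio of 88.7 (exact 95% counting interval 15.2 to 3569; edgeR adjusted p = 1.75e-05) and below the ENL KO by a ratio of 30.8 (5.03 to 1268). SLC38A3 fell in the ENL KO as well (-1.51 ± 0.43, 0.0127), a call lost without control replicate 2 (-1.38, 0.0908) or ENL KO replicate 2 (-1.14, 0.0535). In HEL it had 3 counts in all. SLC38A5 was at 202 and 198 CPM in the K562 control, 231 to 237 in the DOT1L KO and 238 to 254 in the ENL KO, and rose by 0.23 ± 0.05 and 0.30 ± 0.05 (edgeR adjusted p = 0.00203 and 3.95e-04). Its HEL change was 0.21 ± 0.08 (0.0143), which lost its call without HEL control replicate 1 (adjusted p = 0.0520, edgeR) or KD replicate 2 (0.227).

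SLC38A7 and SLC38A9 act on lysosomes. SLC38A7, which exports glutamine from lysosomes, rose in all 3 depleted groups, by 0.44 ± 0.08 in the DOT1L KO, 0.37 ± 0.08 in the ENL KO and 0.98 ± 0.22 in the HEL KD (edgeR adjusted p = 3.75e-04, 0.00204 and 1.31e-04). SLC38A9, the lysosomal arginine sensor of the growth kinase mTORC1, was at 14.4 and 12.6 CPM in the K562 control, 14.8, 15.8 and 16.7 with DOT1L KO, and 17.3, 16.3 and 16.9 with ENL KO. It rose in the ENL KO (0.32 ± 0.10, edgeR adjusted p = 0.0199), but not without control replicate 2 (0.23, 0.191), and was at 0.23 ± 0.10 (0.0708) in the DOT1L KO. In HEL it was at 10.3 and 10.4 CPM in the control and 11.5 and 9.52 in the KD (0.03 ± 0.14, 0.891). SLC38A10 rose in the DOT1L KO (0.23 ± 0.06, 0.00423; not without control replicate 2, 0.0526), in the ENL KO (0.60 ± 0.06, 2.18e-06) and in the HEL KD (0.21 ± 0.07, 0.0142; not without control replicate 2 or KD replicate 2). SLC38A6 passed in none of these 3 comparisons, and 25.5% of its exonic length lies under a gene on the opposite strand.

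SLC43A1, an equilibrating carrier of branched amino acids, and its chromosome 11 neighbour SLC43A3, a carrier of purine bases, both rose in the DOT1L KO and fell in the HEL KD. SLC43A1 (57484531 to 57515719, minus strand) was at 47.7 and 49.7 CPM in the K562 control, 66.1, 68.8 and 70.0 in DOT1L KO libraries and 55.2, 50.9 and 47.8 in those of the ENL KO. It rose by 0.49 ± 0.07 in the DOT1L KO (edgeR adjusted p = 7.43e-05), and the ENL KO, which overlapped the control, was at 0.08 ± 0.07 (0.424). In HEL it fell from 41.9 and 35.2 CPM to 28.2 and 30.4 (-0.40 ± 0.08, 4.39e-05). SLC43A3 rose in the DOT1L KO (0.34 ± 0.05, 9.44e-05) and fell in the HEL KD (-0.24 ± 0.03, 1.97e-08). SLC43A2 had 14 counts or fewer in every library and passed in no comparison.

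Across the lines, the response to DOT1L depletion differed past the threshold for 15 of the 35 members tested in a joint fit, 6 higher and 9 lower in HEL than in K562, beside 38.9% of 15367 genes (19.8% higher and 19.1% lower). In 8 of the 35 members HEL gave 3 counts or fewer in all, so no difference could be measured. The same holds for SLC6A11, which had no count in the K562 control or DOT1L KO. For SLC6A13, among the 15, the difference rests on 5 HEL counts. SLC6A19 differed by -2.22 ± 0.10, SLC43A1 by -0.87 ± 0.11, SLC6A9 by -0.85 ± 0.30, SLC7A1 by 0.48 ± 0.07 and SLC7A5 by 0.50 ± 0.07 (HEL minus K562, edgeR adjusted p = 1.11e-13, 2.91e-06, 0.0287, 1.31e-05 and 5.74e-06). The SLC6A9 difference lost its call without HEL control replicate 2 (-0.41, edgeR adjusted p = 0.480) or HEL KD replicate 1 (-0.60, 0.182). SLC6A6 and SLC6A8 differed by 1.33 ± 0.08 and 1.12 ± 0.10 (1.17e-11 and 2.06e-08). The line goes together with knockdown against knockout, with the medium and with read against fragment counts, so these cannot be told apart. DOT1L messenger RNA itself fell by 1.64 in HEL and by 0.53 in K562 on the log2 scale.

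**Figure D5:**
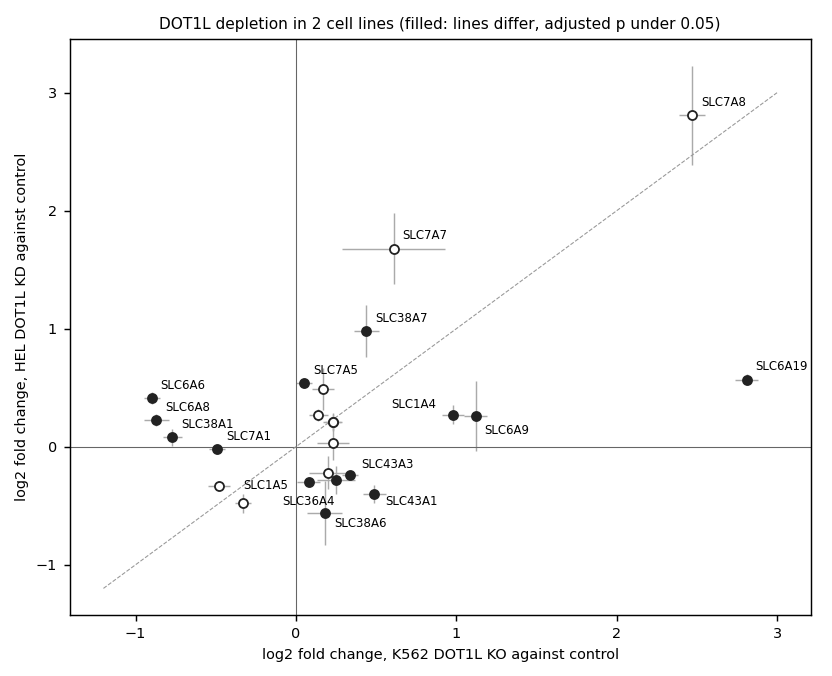
Log2 fold change of the 24 members tested in both lines, K562 DOT1L KO against control on the x axis and HEL DOT1L KD against control on the y axis, with bars of 1 standard error. Filled points are the 14 members whose responses differed between the lines in edgeR, and the dashed line marks equal responses. SLC7A8, with 4 and 5 counts in the HEL control libraries, lies near that line at 2.47 and 2.81. SLC6A19 lies far below it at 2.81 and 0.57, and SLC6A6 and SLC6A8 lie in the upper left.

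Genes that act with these carriers were read from the same fits. The ATF4 amino acid response list (30 genes), through which cells answer amino acid shortage and which includes biosynthetic enzymes and tRNA synthetases, had 4 members higher and 14 lower in the DOT1L KO and none higher and 17 lower in the ENL KO. In HEL it had 3 higher and 14 lower of 27. The shares past the threshold were 60.0%, 56.7% and 63.0%, beside 51.1%, 41.0% and 55.0% of all genes, and the lower genes alone are to be read against 24.2%, 22.2% and 28.0%. The DOT1L KO count fell from 18 to 11 without K562 control replicate 1, and the HEL count from 17 to 11 in DESeq2. Its median log2 fold change was -0.14, -0.36 and -0.16 in these comparisons. CHAC1, which degrades glutathione, was at 10.8 ± 0.964 CPM in the K562 control, 11.2 ± 1.52 with DOT1L KO, and 4.61 ± 0.834 with ENL KO, a fall of 1.21 ± 0.16 in the ENL KO (edgeR adjusted p = 3.87e-05). CTH, which makes cysteine, and STC2 fell there too, by 1.01 ± 0.12 and 1.76 ± 0.14. DDIT4, an inhibitor of mTORC1, fell in both knockouts (-1.16 ± 0.14 and -1.28 ± 0.14), as GPT2 and VLDLR did by more than 1 in the DOT1L KO (-1.05 ± 0.09 and -1.48 ± 0.48). In HEL ALDH1L2 and WARS fell by 1.51 ± 0.23 and 1.00 ± 0.06. ATF4 itself was at 377 ± 7.27 CPM in the K562 control, 341 ± 12.3 in DOT1L KO libraries and 352 ± 11.9 in those of the ENL KO.

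Lysosomal amino acid sensing (30 genes, among them the Rag GTPases and their regulators) had 13 genes higher and 5 lower in the DOT1L KO. In ENL KO cells 7 rose and 7 fell, and in HEL 10 and 7 did. The shares past the threshold were 60.0%, 46.7% and 56.7%, near the 51.1%, 41.0% and 55.0% of all genes. Without K562 control replicate 1 or 2 the DOT1L KO count fell from 18 to 9 and the ENL KO count from 14 to 7. RRAGD, a Rag GTPase, rose by 1.64 ± 0.54 in the DOT1L KO from a level of 0.257 ± 0.163 CPM (edgeR adjusted p = 0.0223). Of 14 glutamate and glutathione enzymes, 2 were higher and 7 lower in the DOT1L KO and 2 higher and 5 lower in the ENL KO, and of 11 tested in HEL 7 were higher and 3 lower. These were 64.3%, 50% and 90.9% of those tested, and the ENL KO count fell from 7 to 4 without control replicate 2 or ENL KO replicate 1 or 2. GLUL, which makes glutamine from glutamate, fell from 1871 ± 43.9 CPM in the K562 control to 1120 ± 37.0 with DOT1L KO, and 734 ± 28.9 with ENL KO. In the HEL KD it fell from 1928 ± 12.6 to 1071 ± 2.14. Those falls were 0.74 ± 0.05, 1.35 ± 0.05 and 0.85 ± 0.03 on the log2 scale (edgeR adjusted p = 6.14e-08, 3.55e-10 and 2.62e-32). GLS2, which splits glutamine, rose in the DOT1L KO from 0.211 ± 0.0306 to 0.710 ± 0.181 CPM (1.69 ± 0.55, 0.0203). Of 11 other amino acid carriers, 3 were higher and 5 lower in the DOT1L KO, 4 higher and 3 lower in the ENL KO, and 2 higher and 3 lower in HEL (72.7%, 63.6% and 45.5%). The ENL KO count fell from 7 to 4 without control replicate 1, and the HEL count from 5 to 3 without KD replicate 1 or in DESeq2. SLC16A10, a facilitating carrier of aromatic amino acids, rose in the DOT1L KO from 2.63 ± 0.363 to 13.2 ± 1.40 CPM (2.33 ± 0.16, 4.55e-08), and the mitochondrial carrier SLC25A29 fell in both knockouts (-1.29 ± 0.15 and -1.05 ± 0.15).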

How the data were processed

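RNA-seq libraries of K562 and HEL, 13 of the 74 samples of the series, were used, and the others were not analysed here. The authors deposited whole-number counts per gene, of fragments for K562 and of reads for HEL, per the file headers, with the exonic length and exon positions of each gene. Per the submitters' processing notes, which give no roles, the tools were fastp 0.13.1, HISAT2 2.1.0, Bowtie2 2.3.4.1, deepTools and featureCounts 1.6.1, and the builds hg38 and hg19. Of 26328 genes with a RefSeq symbol, 99.75% overlapped their GRCh38.p14 position, all 59 members included, so coordinates are given on that build. The libraries were stranded (dUTP method, per the labels' protocols), but the strand setting of the counting is not given in the sources used here. Values of 9 members whose exons overlap a gene on the opposite strand, SLC6A9, SLC6A6, SLC7A11, SLC6A12, SLC38A6, SLC7A6, SLC3A1, SLC7A14 and SLC7A10, are therefore less certain.

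Groups came from the labels. Genes with low counts were removed with filterByExpr (at least 10 counts in enough libraries and 15 in all), and the rest were scaled by TMM in edgeR 4.0.16 (R 4.3.3) and tested with glmQLFit and glmQLFTest, the K562 groups in one fit of 8 libraries, HEL in another of 4, and the lines in a joint fit with an interaction. P-values were adjusted over all genes tested, the threshold was 0.05, and standard errors were derived from the F statistic. A count of 0 allows up to 3 counts, 0.101 to 0.244 CPM by library. Exact counting intervals (95%) and the floors of a group pool its libraries and cover counting error only, so they leave out the spread between libraries. K562 replicate pairs varied by more than counting error (chi-square of 4.05 to 9.64 per degree of freedom), so the intervals may be too narrow. The labels name no molecular identifiers, so copies of a molecule are not allowed for either. The procedure was tested on simulated data. Alternatives were DESeq2 1.42.0, other scalings, no filter, a fold change condition, a replicate block and leaving out each library.

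By rule, values per library are given for members past the threshold with a mean of at least 1 CPM (10 members). Their log2 fold change also reached 1 in size in a comparison with a control. Whatever they did, SLC3A2, SLC7A5, SLC1A5, SLC7A11, SLC38A2, SLC38A9, SLC7A1 and SLC43A1 are given as well. SLC7A11 met both rules, so these are 17 members. Library values of other members, such as SLC6A6, SLC6A8, SLC38A1 and SLC6A11, are given outside this rule. The members, the 4 pathway lists and the marker lists (erythroid, megakaryocytic, granulocytic and monocytic, B cell, T cell, epithelial) were chosen with earlier results of these data known. Summed B cell markers were at most 2.55 CPM in any library, and epithelial markers were at 120 to 121 CPM in the K562 control, 78.1 to 85.2 in the DOT1L KO, 92.4 to 98.6 in the ENL KO and at most 1.22 in HEL. Only 1 of the 3 epithelial markers reached a mean of 1 CPM in each K562 group.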

Additional observations from a re-analysis of the deposited data

Results flagged for a closer look

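In the edgeR interaction test, the response to DOT1L depletion differed between HEL and K562 for 7 of 17 members, beside 38.9% of all genes. These 17 are the 10 chosen by size of change and those given whatever they did. The 10 were chosen from the same libraries, so the share of the 17 is not comparable with that of all genes. SLC6A6 and SLC6A8, outside the 17, also differed between the lines. SLC1A3, SLC38A3, SLC6A12 and SLC6A15, among the 17, had too few HEL counts to be tested in that line. Differences are HEL minus K562 on the log2 scale. SLC6A19, the importer of neutral amino acids, rose in both lines and differed by -2.22 (edgeR adjusted p = 1.11e-13). SLC43A1, which carries branched amino acids, rose in K562 and fell in HEL and differed by -0.87 (2.91e-06). The glycine importer SLC6A9 differed by -0.85 (0.0287), having risen in K562 and not passed the test in HEL, and the call was lost without HEL control replicate 2 (-0.41, edgeR adjusted p = 0.480) or HEL KD replicate 1 (-0.60, 0.182). SLC1A5, the glutamine importer, fell in HEL and did not pass in K562, and differed by -0.36 (7.49e-04). SLC7A5 rose in HEL and did not pass in K562, and differed by 0.50 (5.74e-06). SLC7A1 fell in K562 and did not pass in HEL, and differed by 0.48 (1.31e-05). SLC36A4 differed by -0.51 (0.0264), a call lost in DESeq2 (adjusted p = 0.0787) and in edgeR without HEL control replicate 1 (-0.35, 0.194), HEL KD replicate 2 (-0.41, 0.134) or K562 control replicate 2 (-0.47, 0.0767). The lines also differed in the method of depletion, the medium and the unit counted, which cannot be told apart from the line.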

How the results depend on the processing

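With a log2 fold change of at least 1 as a further condition, the members past the threshold numbered 11 in the K562 DOT1L KO, 8 in the ENL KO, 13 between the knockouts, 2 in HEL and 4 for the difference between the lines. Leaving out 1 library at a time gave 21 to 22, 14 to 18, 25 to 29, 15 to 17 and 11 to 15. No fold change past the threshold reversed its direction under any alternative run. In HEL 3 that were not past it changed sign: SLC6A9 (0.26) ranged from -0.08 to 0.69 and SLC38A9 (0.03) from -0.12 to 0.15 when 1 library was left out, SLC6A9 being -0.03 without KD replicate 2, and SLC7A1 (-0.02) was 0.05 with upper-quartile and 0.01 with library-size scaling. Of 64 fold changes of the 17 members given by rule, 47 kept their direction and their side of the threshold under all alternatives run. DESeq2 called 13 members in HEL, where edgeR called 18, and among the members named in the text it did not call SLC1A4 (adjusted p = 0.0958), SLC36A1 (0.175), SLC38A5 (0.172), SLC36A4 (0.248) and SLC38A10 (0.177) there, nor SLC6A12 (0.0572) and SLC6A4 (0.127) in the DOT1L KO, nor SLC38A3 (0.0503) and SLC6A4 (0.0547) in the ENL KO. Without the filter on low counts HEL had 14. The cause of these changes was not tested. Upper-quartile scaling moved the median of all HEL genes by 0.07 on the log2 scale, more than the other scalings moved any comparison. With the replicate number as a replicate block the counts were 26, 22, 30, 18 and 17, and in the DOT1L KO SLC1A5 (0.12, edgeR adjusted p = 0.00785), SLC3A2 (0.17, 0.00251) and SLC36A4 (0.31, 0.0298) then passed. Deviations from the group means of same-numbered K562 libraries had correlations of 0.091 to 0.704 and those of HEL -0.051. The K562 libraries numbered 1 correlated with each other at 0.479, 0.503 and 0.704 and negatively with all other numbers, and the main fit has no term for this. Among numbers 2 and 3 not every library correlated best with its own number, so the numbers were not taken as pairs. Members under about 1 CPM rest on few counts, and a count of 0 in a library allows a level of up to 0.244 CPM at this depth.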
